A study of Sus scrofa with 8 samples.

Results

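Elastic fibre proteins and small leucine-rich proteoglycans were examined in backfat, the subcutaneous fat of the back, of KNP and YS pigs. The genes were MFAP5, FBN1, ELN, LOX, LUM, DCN, BGN, FMOD, OGN and TNXB, 10 in all. A probe set was taken where the platform annotation gave it exactly 1 gene symbol and that symbol was one of these. This gave 10 probe sets for 7 genes, out of 6765 genes named in this way on the array. FBN1, LOX and DCN had 2 probe sets each, the other 4 genes had 1, and ELN, FMOD and OGN were not analysed here. MFAP5 and LUM were selected on their measured KNP against YS difference in these same arrays, where both had a lower mean in KNP, and the question was whether the other genes follow them. The KNP against YS values of MFAP5 and LUM are therefore given as a description.

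The 4 KNP samples were taken at 7 months of age and the 4 YS samples at 6 months, from pigs grown under identical conditions. YS appears as Yorkshire in one label, and the labels use KNP without spelling it out. Each sample was hybridised to 1 Affymetrix GeneChip Porcine Genome Array, and the deposited values are linear signal intensities. Age cannot be told apart from breed, sex is not given, and nothing in the labels says that samples are separate animals, so errors and p-values cover only the variation among the samples at hand. Signals were put on the scale log2(signal + 16), and a mean ± SD is over the 4 arrays of a breed.

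An elastic fibre has a core of cross-linked elastin laid on a scaffold of fibrillin microfibrils. FBN1 encodes fibrillin-1, the main microfibril protein, and MFAP5 encodes a small glycoprotein bound to microfibrils. LOX encodes lysyl oxidase, the copper enzyme that starts the cross-linking of elastin and collagen. Lumican (LUM), decorin (DCN) and biglycan (BGN) are small leucine-rich proteoglycans that bind collagen fibrils and control how they assemble. TNXB encodes tenascin-X, a large glycoprotein of the collagen network. In fat these proteins are made mostly by fibroblasts and adipocyte progenitors and form the matrix around fat cells and in the septa. DCN and LUM lie next to each other in RefSeq's gene annotation for pig (assembly Sscrofa11.1), with 0 genes starting between them.

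Some arrays stood apart from the others. The 3'/5' difference compares control probe sets at the 3' end of actin, GAPDH and elongation factor with those at the 5' end (3' minus 5', in log2 units), and it rises as RNA is broken down or copied incompletely. It was 8.54 on KNP replicate 1, 5.88 on KNP replicate 2 and 4.40 on YS replicate 4, and between 2.12 and 3.17 on the other 5 arrays. The summed signal of 8 skeletal muscle markers was 69829 on KNP replicate 2, between 209.3 and 613.6 on the other KNP arrays and between 294.6 and 660.8 on YS arrays. All 6 measured adipocyte markers lay, on all 8 arrays, above the level of controls that have no target in pig (the no-target level). The summed signal of 9 markers of fibroblasts and adipocyte progenitors ranged from 13015 to 25640.1 in KNP and from 13092.5 to 25372 in YS, and 8 of the 9 exceeded that level on all arrays. Gene by gene, 8 of these 9 markers had a lower mean in KNP, against 50.1% of all probe sets tested. Their median log2 difference was -0.28, and 0 passed the test. In bulk tissue, fewer cells of a type and less RNA per cell cannot be told apart.

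MFAP5 had the largest mean difference of the 7 genes. Its signal was 2239, 1981, 1724 and 1882 on KNP replicates 1 to 4, against 4311, 4209.7, 8734 and 2523 on YS replicates 1 to 4. Every KNP array lay below every YS array, and the KNP arrays lay close together while the YS arrays were spread out. In log2 units MFAP5 averaged 10.94 ± 0.16 on KNP arrays and 12.13 ± 0.73 on YS arrays (SD, n = 4), a difference of -1.19 ± 0.37 (SE), so that the YS mean was 2.29-fold that of KNP. The difference was -0.87 without YS replicate 3, the highest array, and -1.58 without the 3 arrays of large 3'/5' difference.

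FBN1, whose product forms the microfibril that the MFAP5 protein binds, had a lower mean in KNP by both of its probe sets. The brighter one had signals of 7876, 9485, 6885 and 6663 on KNP replicates 1 to 4, against 13373, 13817, 20215 and 7853 on YS replicates 1 to 4. All KNP arrays lay below YS replicates 1 to 3, but YS replicate 4 fell among the KNP arrays. Its means were 12.90 ± 0.23 on KNP arrays and 13.68 ± 0.56 on YS arrays (SD, n = 4), with a log2 difference of -0.77 ± 0.32 (SE), and the YS mean was 1.71-fold that of KNP. With 1 array left out the difference ranged from -0.56 without YS replicate 3 to -1.02 without YS replicate 4.

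The dimmer FBN1 probe set varied more from array to array. It had signals of 189.0, 158.9, 458.1 and 625.6 on KNP replicates 1 to 4, against 979.8, 1017, 1156 and 146.5 on YS replicates 1 to 4. The lowest 3 values, from 146.5 to 189.0, fell on the 3 arrays of large 3'/5' difference, and on YS replicate 4 the signal was below the no-target level of 160.8. On the other 5 arrays both KNP values lay below all 3 YS values. The log2 difference was -1.04 ± 0.69 (SE) over 8 arrays and -0.95 ± 0.26 (SE) over those 5. It was -1.72 without YS replicate 4 alone, and -0.58 ± 0.60 (SE) when limma also fitted a term for the 3'/5' difference, smaller than its error, where the brighter probe set had -0.79. Where either probe set lies on the FBN1 transcript is not known here. The plot of the FBN1 probe sets shows both against the 3'/5' difference.

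**Figure D1:**
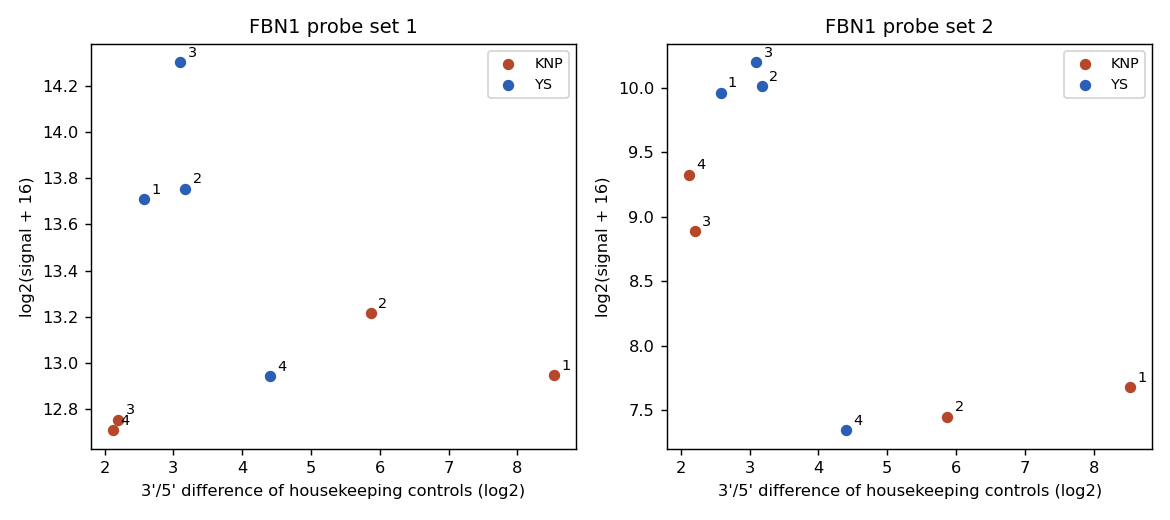
Log2 signal of the brighter (left) and dimmer (right) FBN1 probe set on each array against its 3'/5' difference in log2 units. Numbers mark replicates of KNP and YS. In the dimmer probe set the 3 arrays with a 3'/5' difference of 4.40 or more have the lowest values, and in the brighter one KNP replicates 3 and 4 are the lowest.

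LOX had nearly equal means in the 2 breeds. Its brighter probe set had signals of 157.2, 617.1, 347.4 and 267.0 on KNP replicates 1 to 4, against 243.6, 300.9, 332.4 and 282.4 on YS replicates 1 to 4. KNP replicate 1 was lower and KNP replicates 2 and 3 higher than all YS arrays. The means were 8.35 ± 0.78 on KNP arrays and 8.25 ± 0.18 on YS arrays (SD, n = 4), and the log2 difference of 0.10 ± 0.38 (SE) was smaller than its error. Without KNP replicate 2, the array with a high summed signal of skeletal muscle markers, it was -0.22. The second LOX probe set exceeded the no-target level on 1 KNP and 1 YS array and did not pass the filter on dim probe sets, with a log2 difference of 0.44 ± 0.64 (SE).

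Among the small proteoglycans, lumican was the one picked for its lower mean in KNP. LUM signals were 11141, 6870.2, 3839 and 5916 on KNP replicates 1 to 4, against 14710.3, 11103, 13766 and 6682 on YS replicates 1 to 4. The breeds overlapped, because KNP replicate 1 exceeded YS replicate 2 and YS replicate 4 lay below KNP replicates 1 and 2. LUM averaged 12.66 ± 0.63 on KNP arrays and 13.44 ± 0.51 on YS arrays (SD, n = 4), a log2 difference of -0.78 ± 0.39 (SE). Without the 3 arrays of large 3'/5' difference it was -1.46 ± 0.30 (SE).

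Decorin and biglycan, which share collagen as a ligand with lumican, had lower means in KNP with larger overlap. DCN had signals of 9087, 31943, 17991 and 20374 on KNP replicates 1 to 4, against 24310.3, 29289.9, 33150.1 and 15067 on YS replicates 1 to 4. KNP replicate 2 was higher than YS replicates 1, 2 and 4, and YS replicate 4 was lower than all KNP arrays but replicate 1. The DCN means were 14.14 ± 0.75 on KNP arrays and 14.58 ± 0.50 on YS arrays (SD, n = 4), with a log2 difference of -0.43 ± 0.42 (SE). It was -0.10 without KNP replicate 1 and -0.71 without KNP replicate 2. The second DCN probe set exceeded the no-target level on 0 of 8 arrays, and its level is not used.

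BGN signals were 607.1, 2181, 1225 and 579.9 on KNP replicates 1 to 4, against 1187, 1708, 2487 and 996.0 on YS replicates 1 to 4. KNP replicates 1 and 4 were below all YS arrays, and KNP replicate 2 was above all but YS replicate 3. Its means were 9.97 ± 0.90 on KNP arrays and 10.56 ± 0.58 on YS arrays (SD, n = 4), and the log2 difference was -0.59 ± 0.48 (SE). Without KNP replicate 2 it was -0.97, and without KNP replicate 4 it was -0.34.

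Tenascin-X had a lower mean in KNP, with a wide spread among YS arrays. TNXB signals were 610.5, 2024, 1238 and 955.2 on KNP replicates 1 to 4, against 2434, 2338, 3168 and 519.8 on YS replicates 1 to 4. All KNP arrays lay below YS replicates 1 to 3, while YS replicate 4 was the lowest of all 8 arrays. The means were 10.13 ± 0.71 on KNP arrays and 10.79 ± 1.17 on YS arrays (SD, n = 4), and the log2 difference of -0.66 ± 0.59 (SE) was -1.24 without YS replicate 4, -0.38 without YS replicate 3 and -0.39 without KNP replicate 1.

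**Figure D2:**
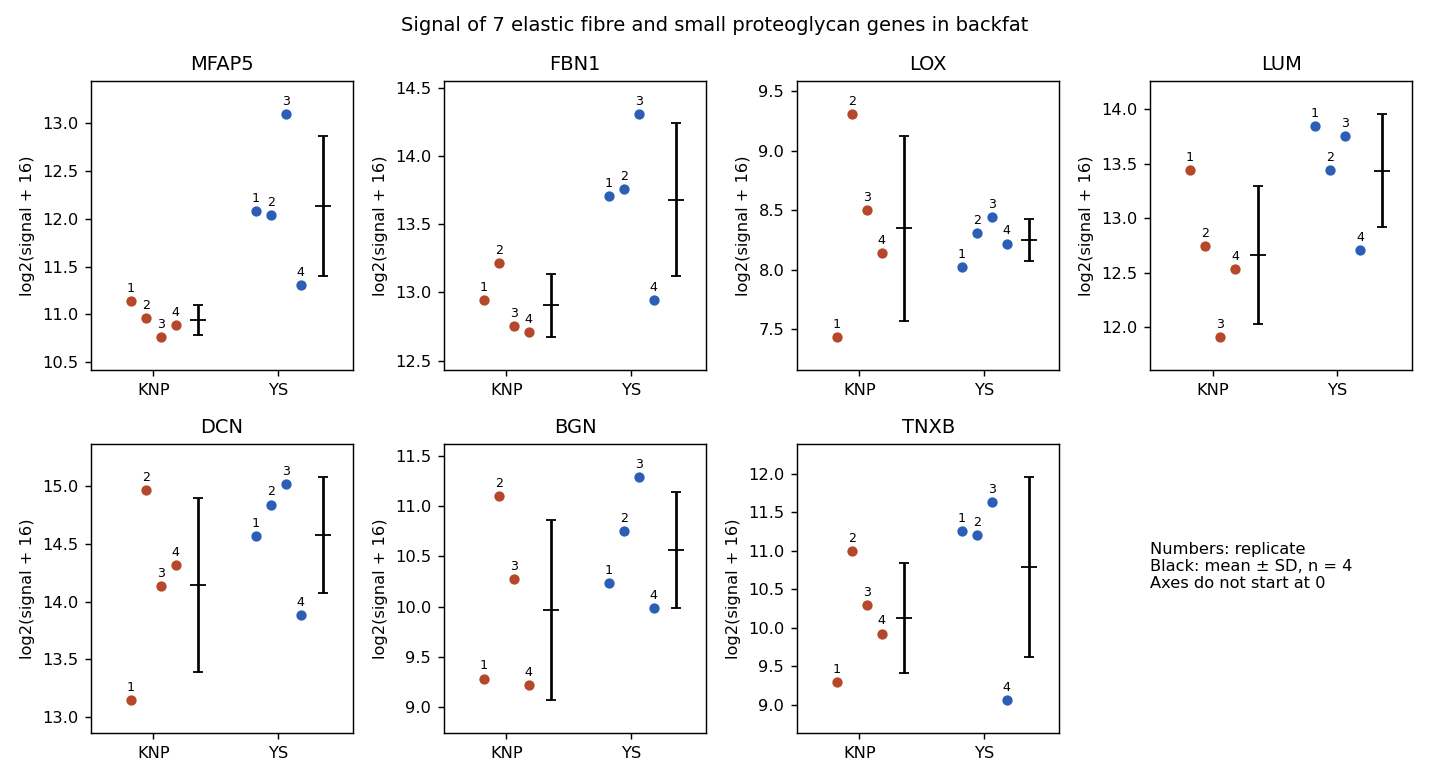
Log2(signal + 16) of the brightest probe set of each gene on every array, KNP left of YS, with replicate numbers beside the points and the mean ± SD of 4 arrays in black. MFAP5 alone shows no overlap between breeds. YS replicate 4 lies with the KNP arrays for FBN1 and is the lowest array for TNXB.

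By its brightest probe set, each gene has 1 value, and 6 of the 7 genes had a lower mean in KNP. Of the 17999 probe sets tested, 50.1% had a lower mean in KNP. The log2 difference was -0.5 or below for 5 of the 7 genes, against 11.4% of probe sets tested. In 1 gene of 7, MFAP5, all KNP values lay below all YS values, against 0.856% of probe sets. Since MFAP5 and LUM were chosen for this direction, nothing is read from these counts. Of the 5 genes besides MFAP5 and LUM, 4 were lower, and their median difference was -0.59. The median over all 7 was -0.66, and the median over all probe sets tested was -0.0010, with quartiles of -0.25 and 0.23. The markers of fibroblasts and adipocyte progenitors also had lower means in KNP for 8 of 9 (median -0.28), and their part in these values was not tested.

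No probe set of these genes passed the test. With limma across all probe sets and Benjamini-Hochberg adjustment, 8 of the 10 probe sets passed the filter on dim probe sets and were tested, and 0 of the 8 had an adjusted p under 0.05, where the share over all probe sets was 0%. All 8 had an adjusted p of 0.99984. Of the 6 tested probe sets of genes other than MFAP5 and LUM, 1 had an unadjusted p under 0.05 in limma, the brighter one of FBN1, against 2.84% of all probe sets tested. That p was 0.0380 in the main fit. In the other settings with all 8 arrays the limma p ran from 0.00485 with array weights to 0.0996 with median centring. With 1 array left out it ran from 0.00538 without YS replicate 4 to 0.114 without YS replicate 3. The median over the 7 genes depended on single arrays. It was -0.39 without KNP replicate 1 and -0.38 without YS replicate 3, and it was -1.02 without YS replicate 4. Without the 3 arrays of large 3'/5' difference it was -1.19, 6 of 7 genes were lower, and 45.8% of all probe sets were lower in KNP. Of these genes MFAP5, FBN1, LUM and TNXB then had differences of -1.58, -1.19, -1.46 and -1.26 with 2 KNP arrays and 3 YS arrays, and the smallest adjusted p over all probe sets was 0.340.

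**Figure D3:**
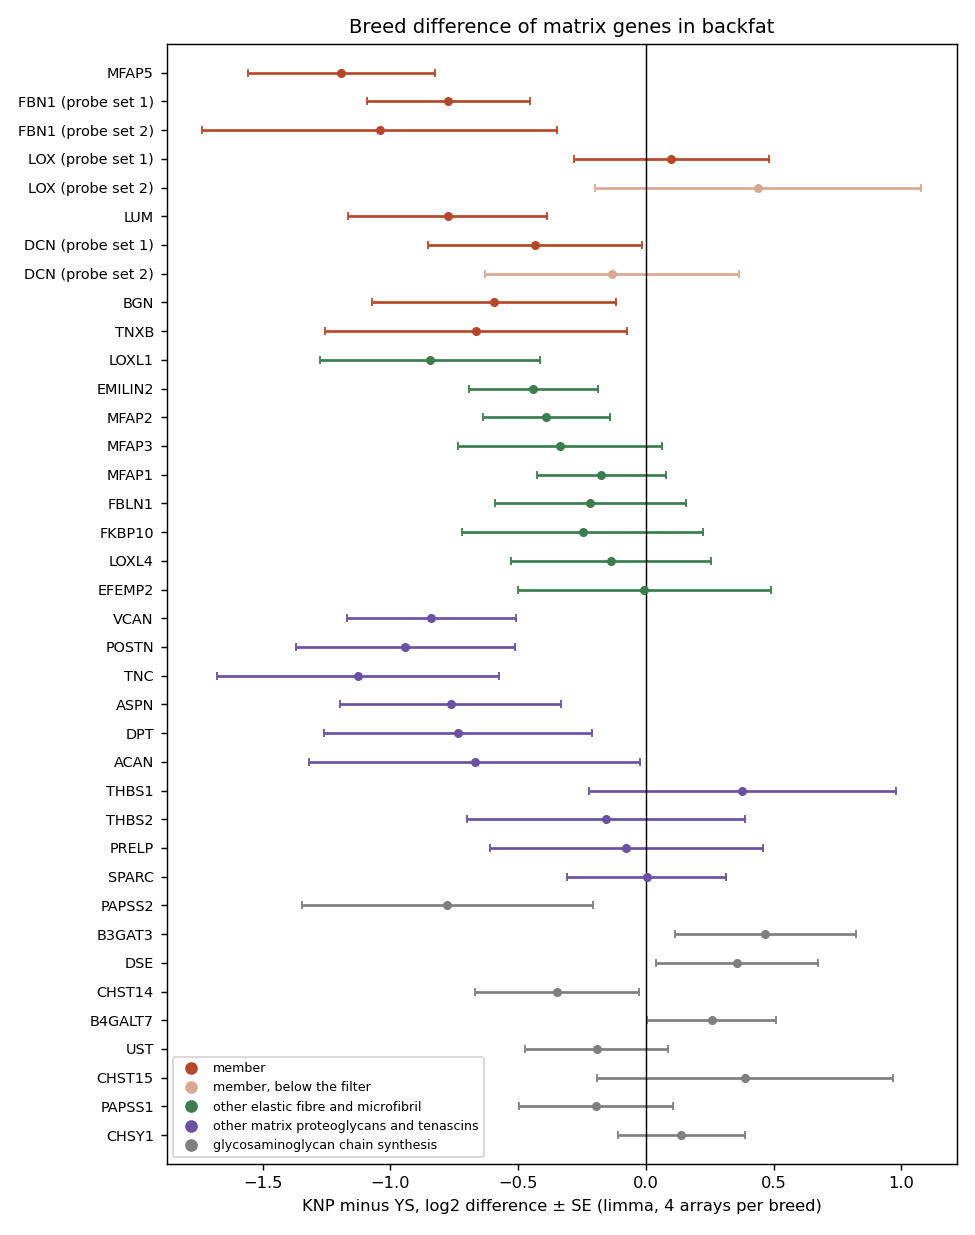
KNP minus YS log2 difference with its SE from limma, for the 10 probe sets of the 7 genes and for the genes of 3 lists of related genes (4 arrays per breed, negative is lower in KNP). MFAP5 is at -1.19, LOX is at 0.10, and the SE of DCN (0.42), BGN (0.48) and TNXB (0.59) is near the size of the difference.

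Whether the other genes follow MFAP5 and LUM was then asked inside each breed, where the breed difference plays no part. Each array's value was expressed as its deviation from the mean of its breed, and Pearson's r over the 8 arrays was tested by exact permutation within breeds (576 arrangements, two-sided), with adjustment over 11 relations. FBN1, by its brighter probe set, followed MFAP5 most closely, with r = 0.92 and Spearman's rho = 0.71 (exact permutation p = 0.0642 for r and 0.0764 for rho, adjusted p = 0.353). With the mean of its 2 probe sets r was 0.74 and rho 0.38 (exact permutation p = 0.255, adjusted p = 0.596). The 2 FBN1 probe sets had r = 0.50 to each other within breeds. The r of the brighter probe set depended on YS replicates 3 and 4 together, the arrays farthest from the median of MFAP5. On the other 6 arrays r was 0.47 (exact permutation p = 0.583) and rho 0.83. With 1 array left out r ranged from 0.82 to 0.97. Next came TNXB (r = 0.65, rho = 0.45, exact permutation p = 0.271, adjusted p = 0.519) and LUM (r = 0.64, rho = 0.74, exact permutation p = 0.0538, adjusted p = 0.353). On the 6 arrays without YS replicates 3 and 4, r to MFAP5 was 0.98 for LUM and -0.49 for TNXB. Without YS replicate 4 alone r was 0.37 for LUM.

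The remaining genes were less like MFAP5. BGN had r = 0.44 and rho = 0.17 (exact permutation p = 0.174, adjusted p = 0.477), and DCN had r = 0.39 and rho = 0.33 (exact permutation p = 0.283, adjusted p = 0.519). LOX had r = 0.02 and rho = 0.07 (exact permutation p = 0.891, adjusted p = 0.951). Without YS replicates 3 and 4, r was -0.31 for BGN, -0.53 for DCN and -0.49 for LOX (exact permutation p = 0.625, 0.396 and 0.479). MFAP5 deviated from its breed mean by 0.96 and -0.82 on these 2 arrays, and by -0.17 to 0.20 on the other 6. With so little spread left in MFAP5, the 6 arrays cannot show whether these relations held. Over the 17998 other probe sets r to MFAP5 had a median of -0.09 and quartiles of -0.37 and 0.22, and 2.52% exceeded 0.7. FBN1, 1 of the 6 genes, exceeded 0.7, and r for FBN1, TNXB and LUM lay at percentiles 99.9, 96.2 and 95.8 of that distribution. For BGN, DCN and LOX the percentiles were 87.2, 84.8 and 60.2.

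Apart from MFAP5, the gene most like LUM was FBN1, with r = 0.64 and rho = 0.57 (exact permutation p = 0.102, adjusted p = 0.376), and r was 0.18 without KNP replicate 3 and YS replicate 4. No relation of LUM to its chromosomal neighbour DCN was found, with r = -0.04 and rho = -0.10 (exact permutation p = 0.950, adjusted p = 0.951). The DCN value rested on 1 array: without KNP replicate 1, where LUM was the highest and DCN the lowest of the KNP arrays, r was 0.83. For BGN r was -0.02 and rho -0.02 (exact permutation p = 0.951), for TNXB 0.31 and 0.31 (p = 0.472), and for LOX -0.38 and -0.36 (p = 0.481), with adjusted exact permutation p-values of 0.951, 0.661 and 0.661. Without KNP replicate 3 and YS replicate 4, r was -0.77 for DCN, -0.25 for BGN, -0.50 for TNXB and -0.60 for LOX. Of all probe sets, 5.47% had r to LUM above 0.7, and 0 of the 6 other genes did.

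The closest pairs after MFAP5 and FBN1 did not involve either of the 2 genes that led to the set. The comparison of all 21 pairs of the 7 genes was added after seeing the data. Over these pairs r within breeds was above 0 for 18 and had a median of 0.64. DCN and TNXB had r = 0.86 and rho = 0.81 (exact permutation p = 0.00868, adjusted over 21 pairs 0.124), LOX and BGN had r = 0.84 and rho = 0.88 (exact permutation p = 0.0191, adjusted 0.124), and FBN1 and TNXB had r = 0.84 and rho = 0.79 (exact permutation p = 0.0295, adjusted 0.124). Without the 2 arrays farthest from the median of the first gene, r was 0.83 for DCN and TNXB, 0.87 for LOX and BGN, and 0.50 for FBN1 and TNXB. LOX and DCN (r = 0.82) and DCN and BGN (r = 0.78) came next, with exact permutation p-values of 0.0573 and 0.0556 and an adjusted p of 0.134. Leaving out the 2 farthest arrays in the same way gave r = 0.26 for LOX and DCN and 0.76 for DCN and BGN. No pair passed the adjusted threshold, and 5 had an unadjusted exact permutation p under 0.05. This depended on the scaling: with median centring 15 of the 21 pairs passed, r was above 0 for 21 and its median was 0.77. DCN and TNXB then had r = 0.93 (adjusted exact permutation p = 0.0182). Median centring also raised r outside these genes. Over all other probe sets the median r to MFAP5 went from -0.09 to 0.28 and that to LUM from -0.06 to 0.15. Pairs of other probe sets were not counted, so the pair counts have no share over the array beside them and nothing is read from them.

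The grid of deviations shows which arrays carried these relations. YS replicate 3 was above its breed mean for 7 of 7 genes and was the highest YS array for 6, and YS replicate 4 was below its breed mean for 7 of 7 and the lowest YS array for 6. In KNP, replicate 2 was above its breed mean for 7 of 7 genes and highest for 5, namely FBN1, LOX, DCN, BGN and TNXB. KNP replicate 1 was the lowest KNP array for LOX, DCN and TNXB and the highest for MFAP5 and LUM. KNP replicates 1 and 2 and YS replicate 4 are the 3 arrays of large 3'/5' difference, and KNP replicate 2 is the one with a high summed signal of skeletal muscle markers.

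**Figure D4:**
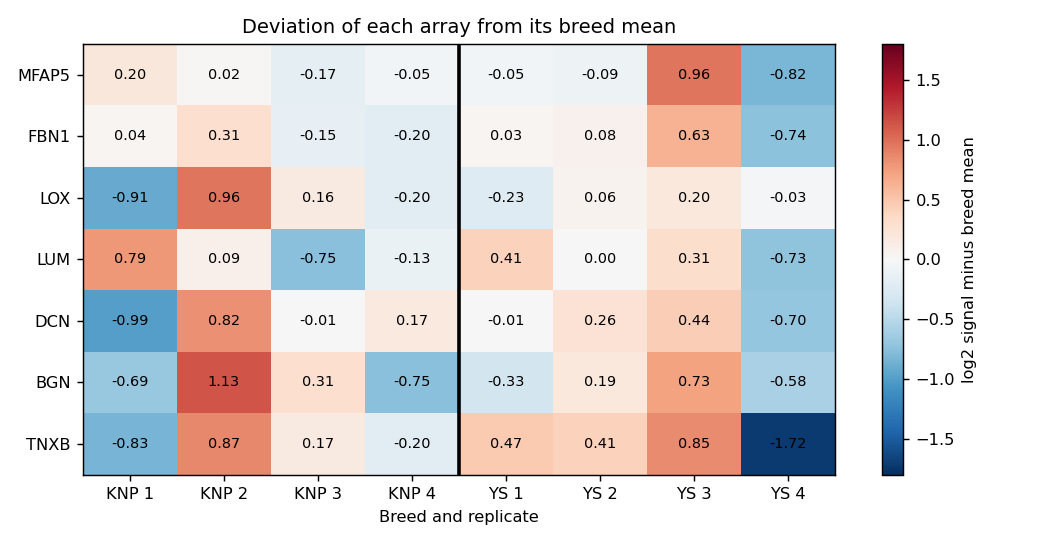
Log2 signal of each gene on each array minus the mean of its breed (KNP left of the line, YS right of it, 4 arrays each), with values printed in the cells. YS replicate 4 is below 0 in all 7 rows and YS replicate 3 above 0 in all 7. MFAP5 and LUM are positive on KNP replicate 1, where LOX, DCN, BGN and TNXB are negative.

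The 3'/5' difference itself was compared with the 7 genes in the same way, adjusted over 7 relations. Within breeds r ranged from -0.48 for DCN (rho = -0.14, exact permutation p = 0.411) to 0.53 for LUM (rho = 0.45, exact permutation p = 0.307), and the adjusted exact permutation p was 0.849 for each gene. With KNP replicates 1 and 4 left out, the arrays farthest from the median, r was 0.21 for DCN and 0.12 for LUM. When the 3'/5' difference was also removed from the values, r to MFAP5 was above 0 for 6 of 6 genes with a median of 0.59, against 0.54 without that step. It ran from 0.04 for LOX to 0.92 for FBN1, and no relation passed (smallest adjusted exact permutation p = 0.322). The share of all other probe sets above 0 was not computed with that step, so nothing is read from the count.

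One choice of scaling changed the relations to MFAP5. Median centring, which makes the median log2 signal of all arrays equal, lowered every probe set by 0.28 on KNP replicate 1 and 0.50 on YS replicate 4. The r to MFAP5 was then 0.95 for FBN1, 0.83 for TNXB, 0.67 for DCN and 0.41 for LOX, each with an adjusted exact permutation p of 0.0334, and 0.77 for LUM (0.223) and 0.64 for BGN (0.0573). The median r to MFAP5 of all other probe sets became 0.28, and 14.1% of them exceeded 0.7. Relations to LUM did not pass after median centring, with a smallest adjusted exact permutation p of 0.223 for MFAP5 and 0.240 for FBN1.

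Outside the 10 genes, the 5 named genes with the highest r to MFAP5 within breeds were LIMS1 (r = 0.98), MGST3 (0.97), TADA3 (0.95), TOR3A (0.94) and ARAF (0.94), over 8 arrays. None of them had a mean lower in KNP by 0.5 or more: their KNP minus YS log2 differences were 0.42, -0.20, 0.52, 0.80 and 0.17. The 5 closest to LUM were SCP2 (r = 0.99), ADH5 (0.98), PGAM5 (0.98), GYG1 (0.98) and ATP5B (0.97), with log2 differences of 0.17, 0.03, 0.06, 0.45 and -0.35. These 10 were taken as the highest of all named genes, so the size of their r is set by the choice.

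Other genes listed under the elastic fibre and microfibril had lower means in KNP, and none passed the test. The list also holds MFAP1, MFAP3 and FKBP10, whose place in the elastic fibre was not checked. Of 25 listed genes 9 had a probe set and were tested, and 0 passed in either direction (0 also at an unadjusted p under 0.05 in limma). All 9 had a lower mean in KNP, against 50.1% of all probe sets tested, with a median log2 difference of -0.25. The first quartile over all probe sets tested was also -0.25. The differences in the list ran from -0.85 for LOXL1 to -0.0062 for EFEMP2. The number of genes lower in KNP was 8 of 9 with quantile normalization and 6 of 9 without KNP replicate 3. The median of the list was -0.41 without KNP replicate 2 and -0.42 without YS replicate 4. By order of p the first 3 were LOXL1, an enzyme of the LOX family, at 8.00 ± 0.68 on KNP arrays and 8.85 ± 0.64 on YS arrays, EMILIN2, an elastin microfibril interface protein, at 9.74 ± 0.24 on KNP arrays and 10.18 ± 0.28 on YS arrays, and MFAP2, a microfibril glycoprotein related to MFAP5, at 8.28 ± 0.25 on KNP arrays and 8.66 ± 0.24 on YS arrays (SD, n = 4). Within breeds, r to MFAP5 and to LUM was 0.73 and 0.88 for LOXL1, 0.69 and 0.37 for EMILIN2, and -0.17 and -0.78 for MFAP2 (8 arrays, given as a description). Of all other probe sets, 2.52% exceeded 0.7 to MFAP5 and 5.47% to LUM.

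Of 19 other matrix proteoglycans, tenascins and matricellular genes 10 were tested and 0 passed, with 1 at an unadjusted p under 0.05 in limma, against 2.84% of all probe sets tested. A lower mean in KNP was found for 8 of the 10, against 50.1% of all probe sets tested. The median log2 difference was -0.70. Without KNP replicate 1, 7 of the 10 were lower and the median was -0.44. The large proteoglycan versican (VCAN), first of the 10 by order of p, averaged 8.36 ± 0.44 on KNP arrays and 9.20 ± 0.47 on YS arrays (SD, n = 4). Its KNP arrays all lay below its YS arrays, as in 0.856% of all probe sets. VCAN was named for its small p in this same comparison, so nothing is read from that lack of overlap. Periostin (POSTN), a matricellular protein, averaged 12.89 ± 0.81 on KNP arrays and 13.83 ± 0.46 on YS arrays. Tenascin-C (TNC) averaged 6.11 ± 0.84 on KNP arrays and 7.23 ± 0.95 on YS arrays, and exceeded the no-target level on 1 KNP and 3 YS arrays.

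Enzymes that build and sulphate the glycosaminoglycan chains carried by decorin and biglycan were split. Of 27 listed genes 9 were tested and 0 passed (0 also at an unadjusted p under 0.05 in limma), with 5 higher and 4 lower in KNP and a median log2 difference of 0.14. The median was -0.0046 without YS replicate 1 and -0.0075 without YS replicate 2. DSE, the epimerase that makes dermatan sulphate, averaged 11.06 ± 0.41 on KNP arrays and 10.70 ± 0.44 on YS arrays (SD, n = 4). B3GAT3, which completes the linker between chain and protein, averaged 8.84 ± 0.41 on KNP arrays and 8.37 ± 0.58 on YS arrays. PAPSS2, which makes the sulphate donor, averaged 5.91 ± 1.25 on KNP arrays and 6.69 ± 0.40 on YS arrays, and exceeded the no-target level on 2 arrays of each breed.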

How the data were processed

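Total RNA of 8 backfat samples was biotin-labelled and hybridised by the manufacturer's protocol, per the labels' protocols. The deposited table gives, for each of 24123 probe sets, a linear intensity on every array. Its mean trimmed by 2% at each end was about 500.1 on every array, as read from the values; how probes were summarised is not stated. This scaling was kept. Values were taken as log2(signal + 16). Controls (124 probe sets) were dropped, then the 25% of the other 23999 with the lowest mean over 8 arrays, which left 17999. The no-target level is the 95th percentile of 23 control probe sets on each array, from 40.6 to 160.8. The symbols of all 10 probe sets matched the current RefSeq symbols through their Entrez identifiers. Where a gene had 2 probe sets, the one with the higher mean stands for it.

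The breed comparison used limma 3.58.1 under R 4.3.3 (lmFit, eBayes, no covariate, two-sided, Benjamini-Hochberg), and relations within breeds used exact permutations in Python 3.11.15. Both were tested on simulated data. From each related list the 3 genes with the smallest p were named, and the 5 genes of highest r to MFAP5 and to LUM. The genes and lists were chosen with earlier results of these data known. The number of arrays limits the precision, and probe sets cannot be compared in level with each other. The labels give no pairing of same-numbered arrays of the breeds, and none was used in the main fit. The deviations of these arrays correlated at -0.17, 0.02, 0.13 and -0.19, which cannot show whether samples were handled together.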

Additional observations from a re-analysis of the deposited data

Results flagged for a closer look

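In 38 groups of 4 arrays (the 10 probe sets and 9 named related genes, in each breed), a single array was set apart when its gap to the nearest other array took up more of the group's range than Dixon's 95% critical value, which chance gives in about 1 in 20 groups. This was so in 5 groups. YS replicate 4 was low for the dimmer FBN1 probe set (log2 signal 7.34, gap 0.918 of the range) and for TNXB (9.07, 0.831), and high for B3GAT3 (9.24, 0.855). YS replicate 3 was high for EMILIN2 (10.59, 0.856), and YS replicate 1 was low for MFAP2 (8.31, 0.881). YS replicate 4 also had the highest median signal, 263.0 against 158.2 to 223.7 on the other arrays, and its part in these values was not tested.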

How the results depend on the processing

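The count of 0 probe sets past the threshold, over all probe sets and among the 8 of these genes, held with no filter, a 50% filter, quantile normalization, median centring, pseudocounts of 1 and 64, the 3'/5' covariate, trend and robust fitting, array weights, an adjusted p of 0.10, each array left out, and without the 3 arrays of large 3'/5' difference, the last chosen after seeing the data. With the replicate number as a block it was also 0 and the MFAP5 difference was -1.19, and it changed no call. The number of genes lower in KNP was 6 in every setting but 1, and 7 without KNP replicate 2. With 1 array left out, the MFAP5 difference ranged from -1.47 to -0.87, that of LUM from -1.04 to -0.53 and the median of the 7 genes from -1.02 to -0.38. The LUM difference was -1.46 without the 3 arrays. Relations to MFAP5 past the threshold numbered 0, but 4 with median centring and 1 (FBN1, r = 0.96) with breed means not removed, where the breed difference that chose MFAP5 enters. The cause was not tested. Of the 21 pairs among the 7 genes, 0 passed, but 15 with median centring, which also raised the median r to MFAP5 over all other probe sets. Relations to LUM and to the 3'/5' difference numbered 0 in all settings run. Below the threshold the sign of r was often unsettled, and 42 values for single genes changed direction. The r of LOX to MFAP5 was -0.34 with the mean of its probe sets and -0.066 with breed means not removed. Without the 2 arrays farthest from the median of MFAP5, r to it was -0.49 for LOX, -0.53 for DCN, -0.31 for BGN and -0.49 for TNXB. To LUM, median centring gave 0.059 for LOX, 0.37 for DCN and 0.30 for BGN, the 3'/5' covariate 0.29 for DCN and 0.016 for BGN, breed means not removed 0.20 for DCN and 0.24 for BGN, and leaving out the 2 farthest arrays -0.50 for TNXB. To the 3'/5' difference, MFAP5 and FBN1 had -0.21 and -0.22 with median centring and -0.24 and -0.19 with breed means not removed, and FBN1 had -0.52 with the mean of its probe sets. Without the 2 arrays farthest from its median, MFAP5, FBN1, LOX, DCN and BGN had -0.18, -0.040, 0.83, 0.21 and 0.28. With 1 array left out, the LOX log2 difference ranged from -0.22 to 0.40, and r to MFAP5 from -0.23 to 0.25 for LOX. The range of r to LUM was -0.73 to 0.23 for LOX, -0.50 to 0.83 for DCN, -0.32 to 0.37 for BGN and -0.44 to 0.82 for TNXB. That of r to the 3'/5' difference was -0.17 to 0.31 for MFAP5, -0.048 to 0.46 for FBN1, -0.83 to 0.85 for LOX, -0.82 to 0.27 for DCN and -0.43 to 0.51 for BGN. Relations were not run without the 3 arrays, since 5 arrays are too few.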
